A study of Mus musculus with 2 samples.

Results

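Genes that move and buffer metal ions were compared between mouse small intestinal epithelium that had been grafted onto colon and control colonic epithelium. The group holds 46 genes of 17305 measured and covers iron, zinc, copper, calcium and magnesium. Members were chosen by symbol, with earlier results of these data known. They are the solute carrier families Slc11a, Slc30a, Slc31a, Slc39a, Slc40a and Slc41a, and 16 named genes for further channels, pumps, buffers and iron regulators. Another 2 mouse genes that meet the same choice by name were not analysed here. The graft was derived from EGFP-transgenic mice of C57BL6 background, whose small intestinal cells were grown as organoids for 7 days, instilled into the colonic lumen of a C57BL6 recipient and collected 4 weeks later. The control was normal colonic epithelium of a C57BL6 control mouse. The labels do not give the animals' age or the part of the small intestine. Epithelium was laser-microdissected from about 30 serial sections of each specimen, and 4.33 ng of total RNA of each was amplified and hybridised to 1 oligonucleotide array.

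Absorptive epithelium takes up metal ions at its luminal face, holds them on buffer proteins inside the cell and exports them at its basal face. Iron is absorbed mainly in the duodenum, where a surface reductase feeds a proton-coupled importer and ferroportin releases the metal to blood. Zinc enters through proteins of the Slc39a (Zip) family, leaves the cytosol through those of the Slc30a (ZnT) family and is held by metallothioneins. Calcium and magnesium pass through apical channels of the Trp superfamily and are extruded basally by pumps and exchangers.

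All values are log2 expression values as deposited, and all differences are graft minus colon. With 1 array per group no difference has a replicate check and no test was possible. A gene was counted as at least 2-fold higher or lower only if the larger of its values was at least 5.48, the median over all genes and both arrays. This left 37 members, of which 33 reached that level on both arrays. Trpm6 and Trpv6 reached it only on the colon array and Atp7b and Slc41a2 only on the graft array, so the first pair could only be counted as lower and the second only as higher. The only error estimate is the agreement of different probe sets for the same gene. Over 586 genes the SD of the difference between a gene's brightest probe sets was 0.48, which leaves out variation between animals. Among the members, Slc39a1 alone had a second probe set, with a difference of 0.072 against 0.14 for the brighter probe set.

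The arrays carried the markers of their labelled tissues. Graft values exceeded colon values by at least 4-fold for all 6 markers of small intestinal enterocytes and were at least 2-fold lower for all 6 colonocyte markers. Of 12 general epithelial markers 0 were 2-fold apart, with a median difference of 0.30. All 6 Paneth cell markers exceeded their colon values by at least 4-fold. The 7 fibroblast and smooth muscle markers had a median difference of -0.54, with 1 at least 2-fold lower.

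Of the 46 metal-handling genes, 7 were at least 2-fold apart in the 2 epithelia. Of the 37 counted members, 1 was at least 2-fold higher in the graft, against 3.55% of all 9392 genes at that level. Another 6 were at least 2-fold lower, against 5.68% of all genes, and 3 of these were at least 4-fold lower, against 1.37%. No member (0 of 37) was at least 4-fold higher, against 1.1% of all genes. Without any condition on level the same 6 of 46 members were lower, against 3.09% of all 17305 genes. The 6 lower genes were Trpm6, Mt2, Slc40a1, Slc30a1, Mt1 and Trpv6, and the higher one was Cybrd1. Only Slc40a1 and Slc30a1 of these belong to the solute carrier families, and the others were among the genes chosen by name. Since that choice was made with earlier results of these data known, the members' shares are not those of a neutral draw. The median difference over all 46 members was 0.0056, and that over all genes was 0. Differences lay within 0.5 on the log2 scale for 34 of 46 members (73.9%), 7 of them with tied values, against 83.7% of all genes. At the median level these shares were 25 of 37 (67.6%) and 71.5%. Just inside the 2-fold limit lay Trpv6 at -1.07 and Mt1 at -1.10, and just outside it lay Atp7b at 0.81 and Tfrc at 0.69. In bulk samples such as these, fewer cells of a type and less RNA per cell cannot be told apart.

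**Figure D1:**
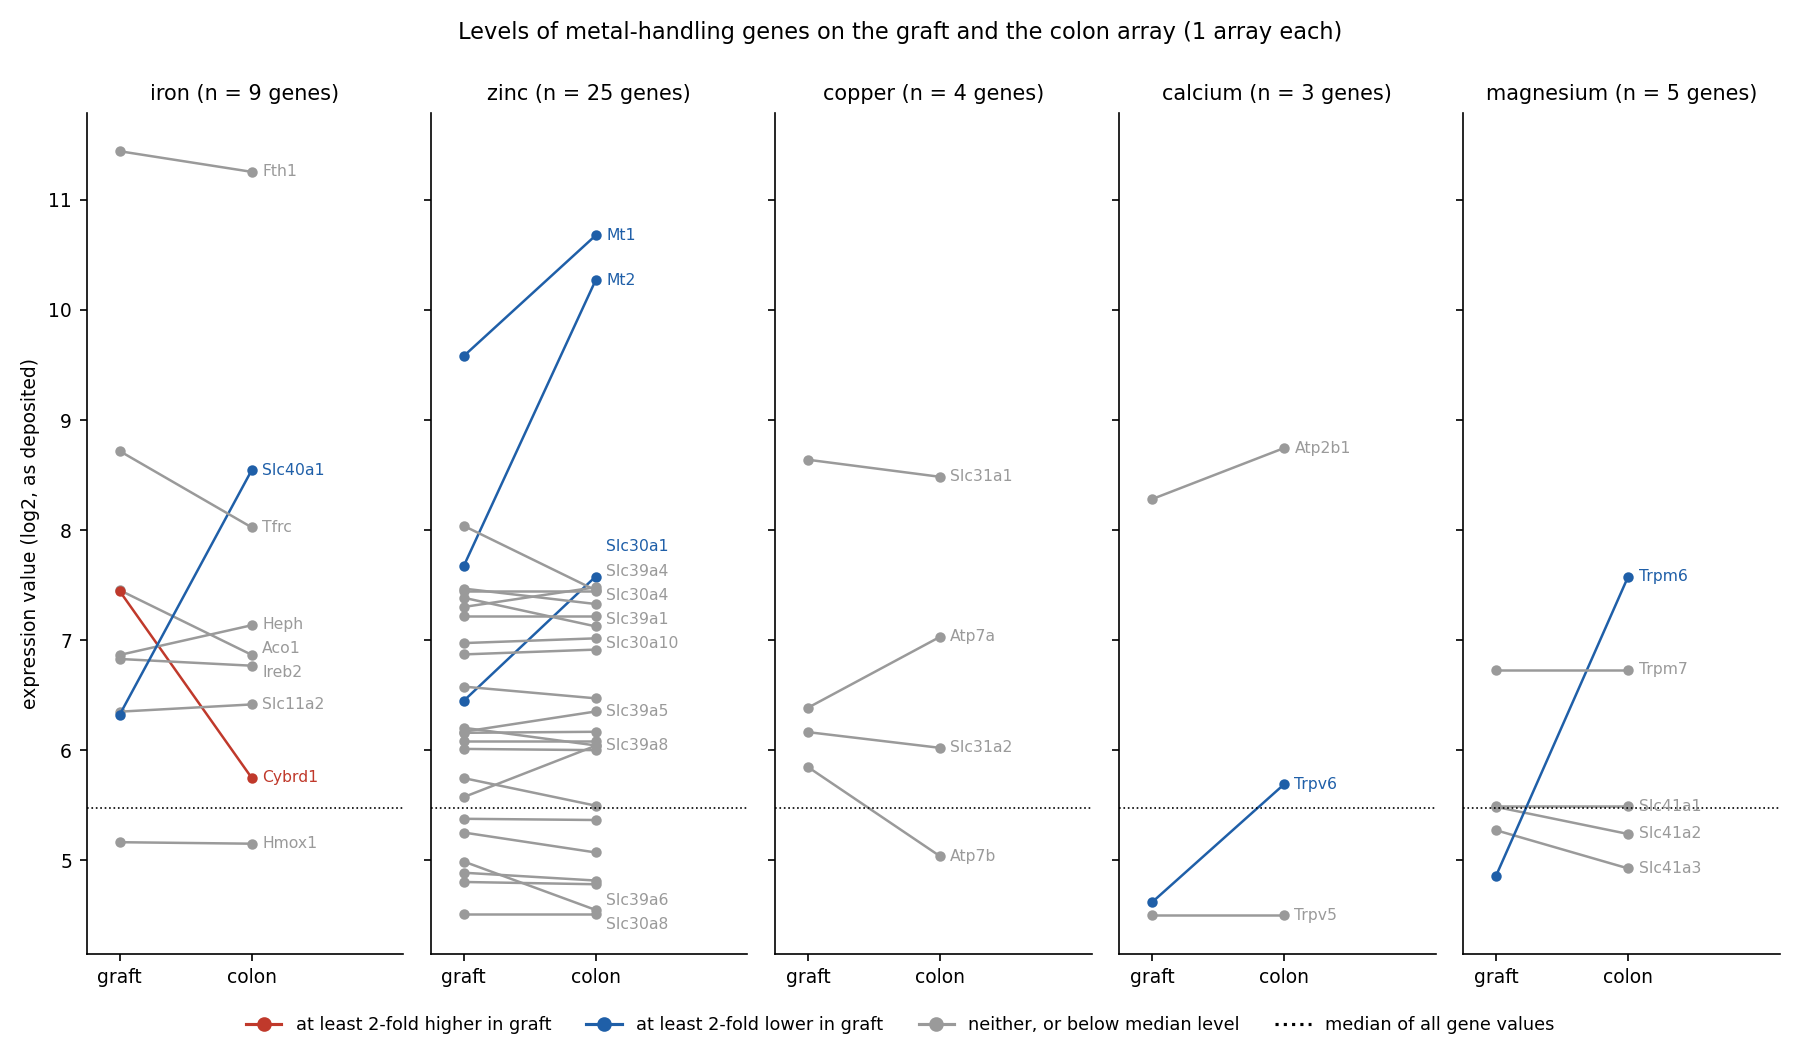
Expression values (log2, as deposited) of the 46 genes on the graft array and on the colon array, 1 line per gene, in a panel for each metal, with 11 of the 25 zinc genes labelled. Slc40a1, Mt2, Mt1, Slc30a1, Trpv6 and Trpm6 have graft values at least 2-fold below the colon, and Cybrd1 lies higher in the graft.

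Exactly equal values on both arrays were deposited for 7 members, Slc30a4, Slc30a8, Slc30a10, Slc39a3, Slc41a1, Trpm7 and Trpv5. Such ties made up 12.1% of all probe sets and were found in 2180 of all 17305 genes. At the median level 5 of the 37 members were tied, against 4.35% of all genes. No label or header states which processing step made them, so a difference of 0 in these 7 genes is not read as equal expression.

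Among the zinc genes, the cytosolic zinc buffers and the main plasma membrane exporter were lower in the graft. The importers differed less than 2-fold, as did most genes. Metallothioneins are small cysteine-rich proteins that bind zinc and copper, and their genes are induced by metal, glucocorticoids and stress. Mt2 had a value of 7.68 in the graft against 10.27 in the colon. That is a 6.05-fold lower level, and only 77 of the 9392 genes had a difference at least as low. Mt1, its neighbour on the chromosome, had a value of 9.58 in the graft against 10.68 in the colon, a 2.14-fold lower level. Mt1 and Mt2 encode closely related transcripts, so a part of either value could come from the other gene's RNA. Slc30a1, the exporter that moves zinc out across the plasma membrane, had a value of 6.45 in the graft against 7.58 in the colon. It was 2.19-fold lower, and 425 of the 9392 genes were at least as low.

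Transcription of Mt1, Mt2 and Slc30a1 is known in the mouse to respond to zinc through Mtf1, a zinc-sensing factor that binds metal response elements. Mtf1 itself had a value of 6.55 in the graft against 7.19 in the colon, a difference of -0.64. Because these 3 members lay on the same side, their promoters are shown, as 250 bases before and 30 bases from the annotated transcript start, from RefSeq's table for GRCm38.p6. Capitals mark the core of the metal response element, TGCACNC or TGCGCNC, searched on both strands. The windows, all on the plus strand, are chr8:94172368-94172647 for Mt2, chr8:94178839-94179118 for Mt1 and chr1:191906531-191906810 for Slc30a1.
Mt2: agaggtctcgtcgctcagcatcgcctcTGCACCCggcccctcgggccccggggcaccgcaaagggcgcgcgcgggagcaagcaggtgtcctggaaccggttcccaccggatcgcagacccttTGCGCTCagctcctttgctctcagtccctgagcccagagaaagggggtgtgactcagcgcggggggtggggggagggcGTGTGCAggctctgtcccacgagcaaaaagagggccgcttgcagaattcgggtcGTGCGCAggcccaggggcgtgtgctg
Mt1: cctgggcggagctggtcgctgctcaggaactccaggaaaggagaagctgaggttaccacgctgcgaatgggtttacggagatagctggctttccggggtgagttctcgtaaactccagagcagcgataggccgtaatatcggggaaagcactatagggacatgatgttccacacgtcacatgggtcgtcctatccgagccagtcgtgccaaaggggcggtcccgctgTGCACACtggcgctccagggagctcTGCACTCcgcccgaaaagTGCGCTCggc
Slc30a1: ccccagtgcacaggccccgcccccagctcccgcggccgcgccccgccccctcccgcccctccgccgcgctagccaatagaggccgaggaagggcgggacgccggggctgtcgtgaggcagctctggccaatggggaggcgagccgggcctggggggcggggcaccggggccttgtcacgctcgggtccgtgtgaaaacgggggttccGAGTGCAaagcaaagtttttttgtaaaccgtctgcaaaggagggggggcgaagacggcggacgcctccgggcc
The Mt2 window held 4 matches, the Mt1 window 3 and the Slc30a1 window 1, and none of them overlap. In Mt1 they clustered between positions -23 and 27 around the annotated start, and in Mt2 they were spread from -223 to 11. Bases beyond the windows were not searched, and the annotated starts were not checked, so the counts describe these windows and not whole promoters. The Slc30a1 match lay on the opposite strand at -43 to -37.

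**Figure D2:**
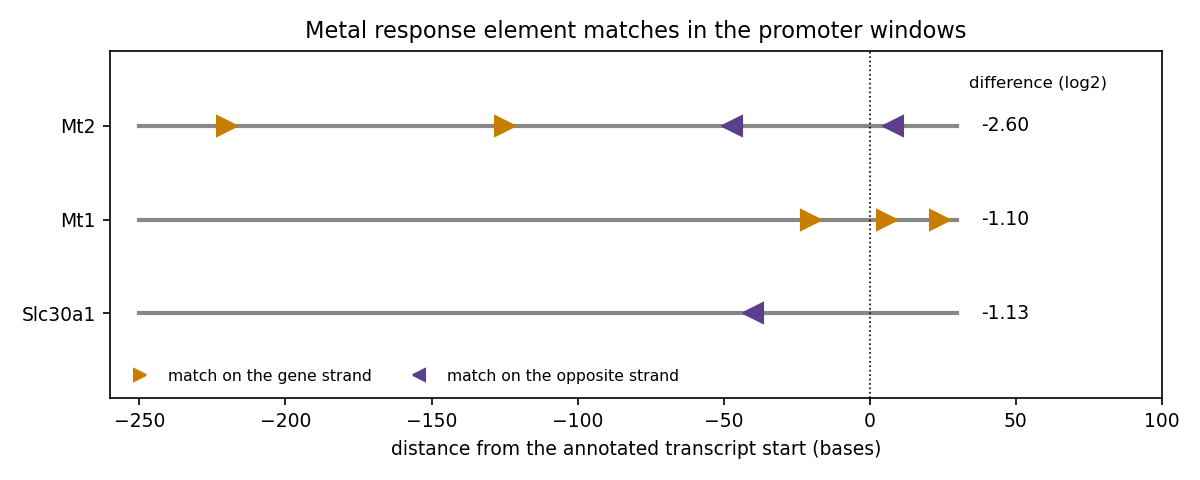
Positions of the metal response element core in the promoter windows of Mt2, Mt1 and Slc30a1, as the distance in bases from the annotated transcript start (dotted line), with triangles that point along the strand of each match and the graft minus colon difference (log2) at the right. Mt2, with 4 matches, has the difference of -2.60, and Mt1 and Slc30a1, with 3 matches and 1, have differences of -1.10 and -1.13.

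These letters are common in promoters. At least 1 match was found in 24.1% of all 32851 windows of the same length and at least 3 in 1.73%. Windows were available for 38 of the 46 members, up to 2 per gene, and at least 1 match was found in 24 of their 46 windows. The other 2 members with 3 matches were Slc30a10 and Slc30a4, whose deposited values were tied and are not read as equal expression. Of the other members at least 2-fold apart, Trpm6, Trpv6 and Cybrd1 had 0 matches, and no window was available for Slc40a1. Matches were also found in Tfrc (2 in 1 window, 0 in the other), Atp7b (1) and Aco1 (1), which had differences above 0, and in Atp7a (2), which had one of -0.64. A match describes the sequence and does not show that a factor binds there. The promoters shown were picked after the values were seen, and a part of Mtf1 in the differences was not tested.

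All Slc39a importers stayed within 2-fold, among them the 10 that reached the median level. So did 8526 of all 9392 genes at that level. Of 13 measured, 8 had a difference above 0, 4 below 0 and 1 was tied, in a range from -0.47 to 0.59 with a median of 0.021. Slc39a4, the apical zinc importer of enterocytes, had a value of 8.04 in the graft against 7.45 in the colon, a difference of 0.59. Slc39a5, a basolateral importer, had a difference of -0.18. Slc39a8, which also carries manganese, had the lowest of the family at -0.47, with 5.58 in the graft against 6.04 in the colon. Slc39a14, which carries zinc, manganese and iron, had a difference of 0.25. The intracellular family members Slc39a7, Slc39a9 and Slc39a13 had differences of -0.043, -0.18 and 0.011. Slc39a11, less well characterised, had a difference of 0.16. Slc39a2, Slc39a6 and Slc39a10 stayed below the median level on both arrays.

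The Slc30a family showed a 2-fold difference in Slc30a1 alone. Of 10 members measured, 7 reached the median level, and 1 of these 7 was at least 2-fold lower (14.3%, against 5.68% of all genes). The differences ranged from -1.13 for Slc30a1 to 0.26 for Slc30a9. Slc30a5, Slc30a6 and Slc30a7, which load zinc into the secretory pathway, had differences of 0.11, -0.0095 and -0.044. Slc30a10, known mainly as a manganese exporter, had a value of 7.22 on both arrays, and Slc30a4, a vesicle loader, had 7.45 on both. Slc30a3 and Slc30a8, known from nerve terminals and pancreatic beta cells, stayed below the median level. Slc30a2, which loads zinc into Paneth cell granules in the mouse, had a value of 4.89 in the graft against 4.82 in the colon, below the median level on both arrays, although the Paneth cell markers were higher in the graft. The 6 Paneth markers had a median value of 9.96 in the graft against 4.91 in the colon.

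Among the iron genes, a luminal reductase was higher in the graft and the basal exporter was lower. Cybrd1, the reductase that prepares dietary iron for uptake, had a value of 7.45 in the graft against 5.75 in the colon. It was 3.24-fold higher, and 149 of the 9392 genes were at least as high. Slc11a2, the proton-coupled importer that takes up the reduced iron, had a value of 6.35 in the graft against 6.42 in the colon, a difference of -0.066. Fth1, the heavy chain of the storage protein ferritin, was among the brightest probe sets, at 11.44 in the graft against 11.26 in the colon. The exporter Slc40a1, ferroportin, had a value of 6.32 in the graft against 8.54 in the colon. Its level was 4.66-fold lower, and 100 of the 9392 genes were at least as low. Heph, the basal ferroxidase that works with ferroportin, had a value of 6.87 in the graft against 7.14 in the colon, a difference of -0.27.

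Genes for uptake from blood and for iron sensing differed less than 2-fold. Tfrc, the transferrin receptor, had a value of 8.72 in the graft against 8.03 in the colon, a difference of 0.69. Aco1 and Ireb2 encode the iron regulatory proteins, which bind iron-responsive elements in ferritin, ferroportin and transferrin receptor mRNAs. Aco1 had a value of 7.46 in the graft against 6.87 in the colon, a difference of 0.59, and Ireb2 had a difference of 0.061. Hmox1, which breaks down haem, had a value of 5.17 in the graft against 5.15 in the colon, below the median level on both arrays. Ferroportin and Hmox1 are also abundant in macrophages. Of 9 macrophage markers 6 reached the median level, and 0 were 2-fold apart. The median difference of these markers was 0.045 over the 9 and 0.32 over the 6. The sum of the unlogged values of the 9 was 611 in the graft against 557 in the colon. The part of these cells in the ferroportin value was not tested.

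Further iron genes were compared from a list chosen for textbook roles, with earlier results of these data known. The further lists of the other metals, given below, were chosen in the same way. Of 37 measured, 24 reached the median level, 4 had graft values at least 2-fold below the colon and 1 at least 2-fold above it. Over all genes at that level the shares were 5.68% lower and 3.55% higher, against 16.7% and 4.17% of the 24. The median difference was -0.027 over the 37 and -0.21 over the 24, and that over all genes at the median level was -0.047. Epas1 encodes the hypoxia-inducible factor that activates Cybrd1, Slc11a2 and Slc40a1 in the mouse duodenum. Its value was 6.91 in the graft against 8.23 in the colon, a 2.49-fold lower level. Slc46a1, a folate carrier also studied for haem uptake, was 2.69-fold lower, at 5.54 in the graft against 6.97 in the colon. Trf, the serum iron carrier, was 2.37-fold lower, and Bola2, which helps to deliver iron-sulfur clusters, was 2.06-fold lower. Trf, at 5.15 in the graft against 6.40 in the colon, reached the median level only on the colon array. It could therefore only be counted as lower. The higher gene was Alas1, the first enzyme of haem synthesis, at 7.43 in the graft against 6.40 in the colon. Ftl1, the ferritin light chain, had a difference of -0.74, opposite in sign to the 0.19 of the heavy chain. Hamp, the liver hormone that degrades ferroportin, was near the lower end, with 4.30 in the graft against 4.51 in the colon.

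**Figure D3:**
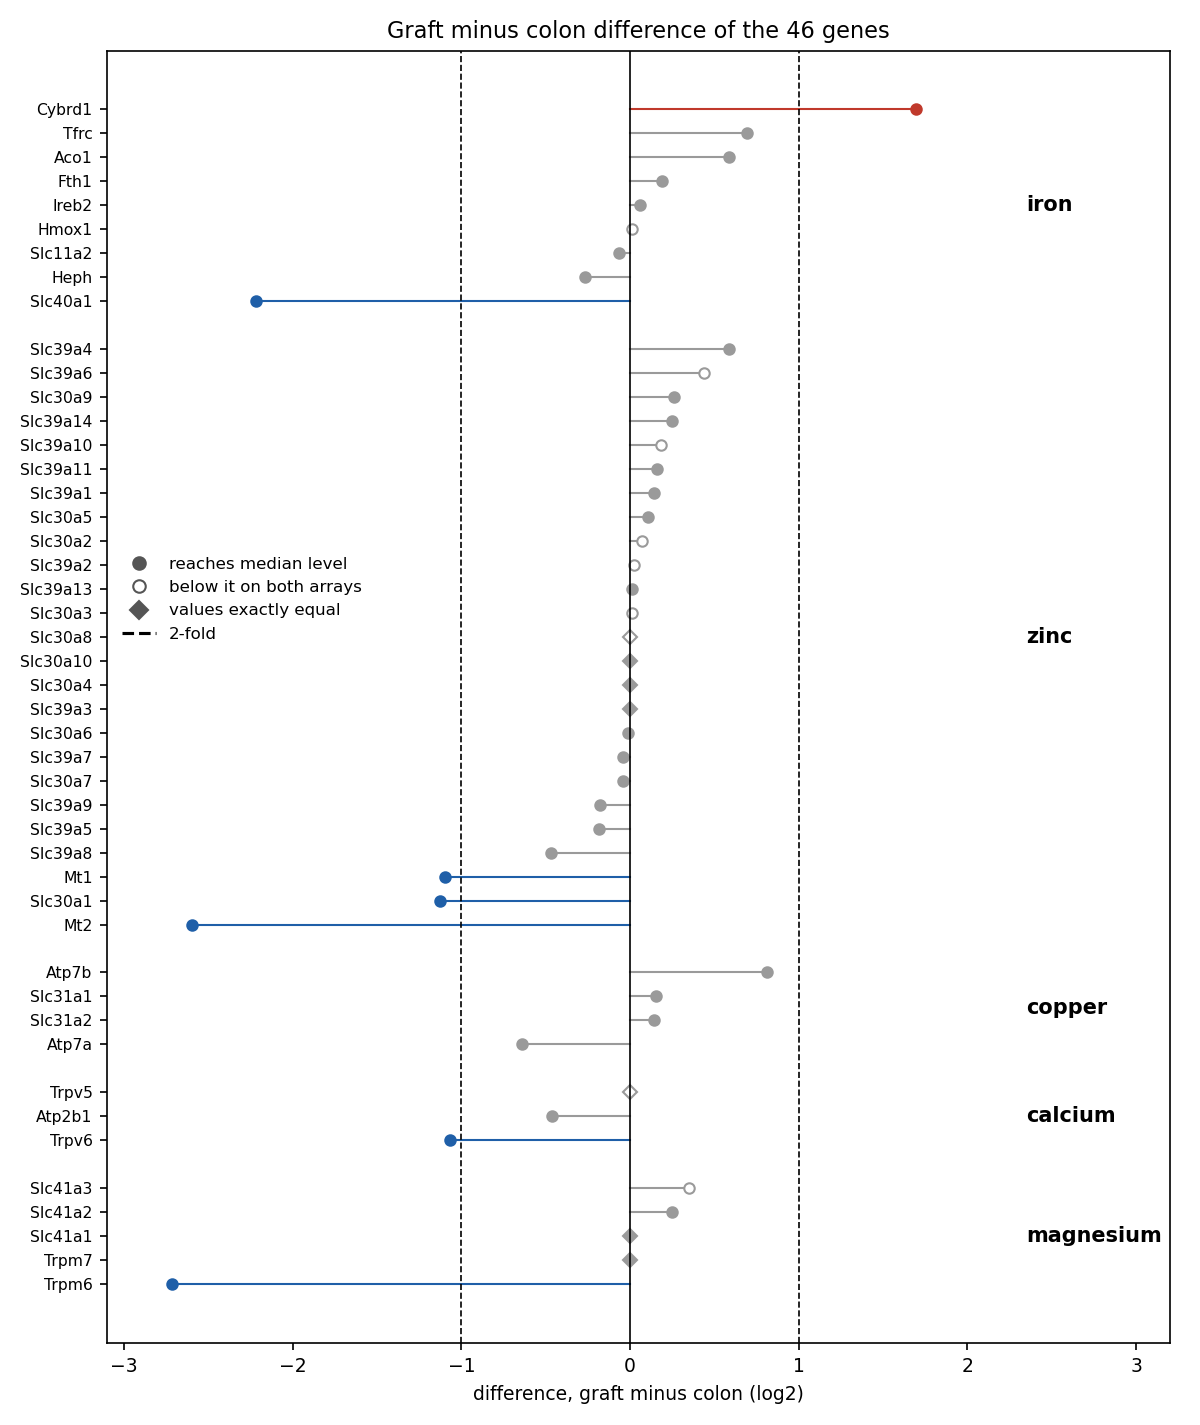
Graft minus colon difference (log2) of each of the 46 genes, grouped by metal, with dashed lines at 2-fold, open symbols for genes below the median level on both arrays and diamonds for exactly equal values. Cybrd1 lies beyond the line on the right, 6 genes lie beyond the line on the left, and the remaining 39 lie between the lines.

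The largest difference of the group was that of a magnesium channel gene. Trpm6, the apical channel kinase through which colon and kidney tubule absorb magnesium, had a value of 4.86 in the graft against 7.58 in the colon. It was 6.56-fold lower, and 69 of the 9392 genes were at least as low. The graft value lay at percentile 26.2 of its array and the colon value at percentile 87.0 of its own. Since no detection call comes with the values, a level that low cannot be separated from background and the fold may be understated. Trpm7, its widely expressed relative, had a value of 6.73 on both arrays.

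Cnnm4, which extrudes magnesium at the basal face of intestinal epithelium in the mouse, was also lower. Its value was 7.64 in the graft against 9.11 in the colon, a 2.78-fold difference. Of 10 further magnesium genes 8 reached the median level. Cnnm4 was the only 1 of these 8 at least 2-fold lower (12.5%, against 5.68% of all genes), and 0 were 2-fold higher. Among the others, Tusc3 had a difference of -0.82, Cnnm3 of -0.61 and Nipal1 of 0.47, and the median was -0.30 over the 10 and -0.40 over the 8. The Slc41a transporters lay near the median level, with differences of 0 for Slc41a1, 0.25 for Slc41a2 and 0.35 for Slc41a3.

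Among the calcium genes, the apical channel was lower in the graft and the buffer and pump differed less than 2-fold. Trpv6, the channel for intestinal calcium entry, had a value of 4.62 in the graft against 5.69 in the colon, a 2.10-fold lower level. The graft value lay at percentile 11.6 of its array, where signal and background cannot be separated. Trpv5, the kidney paralogue next to it in the genome, lay at 4.50 on both arrays. Atp2b1, the plasma membrane calcium pump, had a value of 8.28 in the graft against 8.75 in the colon, a difference of -0.46. S100g, the calcium-binding shuttle protein of enterocytes, had a value of 10.04 in the graft against 9.36 in the colon, a difference of 0.68. Vdr, the vitamin D receptor that drives Trpv6 and S100g, was 2.20-fold lower, at 7.71 in the graft against 8.84 in the colon.

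Of 20 further calcium genes measured, 11 reached the median level, 5 had graft values at least 2-fold below the colon and 1 at least 2-fold above it. That is 45.5% lower and 9.09% higher of the 11, against 5.68% and 3.55% of all genes at that level. This list too was chosen with earlier results of these data known, so its shares are not those of a neutral draw. The median difference was 0 over the 20 and -0.16 over the 11. The higher gene was Cldn15, a claudin that forms paracellular cation pores in the small intestine. It was 3.01-fold higher, at 9.01 in the graft against 7.42 in the colon. Besides Vdr, the lower genes were the mitochondrial sodium-calcium exchanger Slc8b1 (2.94-fold), the endoplasmic reticulum pump Atp2a3 (2.30-fold), the store calcium sensor Stim1 (2.29-fold) and the claudin Cldn12 (2.10-fold). Atp2a2, another reticulum pump, had a difference of 0.57, and Orai1, the partner channel of Stim1, had one of 0.086.

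All 4 copper members stayed within 2-fold, as did 8526 of all 9392 genes at the median level. Slc31a1, the high-affinity copper importer, had a value of 8.64 in the graft against 8.48 in the colon, a difference of 0.15, and its relative Slc31a2 had a difference of 0.14. The copper-pumping ATPases differed in opposite directions. Atp7a, which exports copper from enterocytes towards blood, had a value of 6.39 in the graft against 7.03 in the colon, a difference of -0.64. Atp7b, which serves biliary excretion in liver, had a value of 5.85 in the graft against 5.04 in the colon, a difference of 0.81. Of 12 further copper genes 9 reached the median level and 0 were 2-fold apart. Among all genes at that level 5.68% were at least 2-fold lower and 3.55% higher. The median of the further copper genes was 0.051 over the 12 and -0.032 over the 9, so its sign depended on the genes below that level. Sco1, which delivers copper to cytochrome oxidase, had a difference of 0.74, Ccs, the chaperone of superoxide dismutase, 0.45, the mitochondrial carrier Slc25a3 -0.42, Xiap -0.34 and the chaperone Atox1 -0.23.

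**Figure D4:**
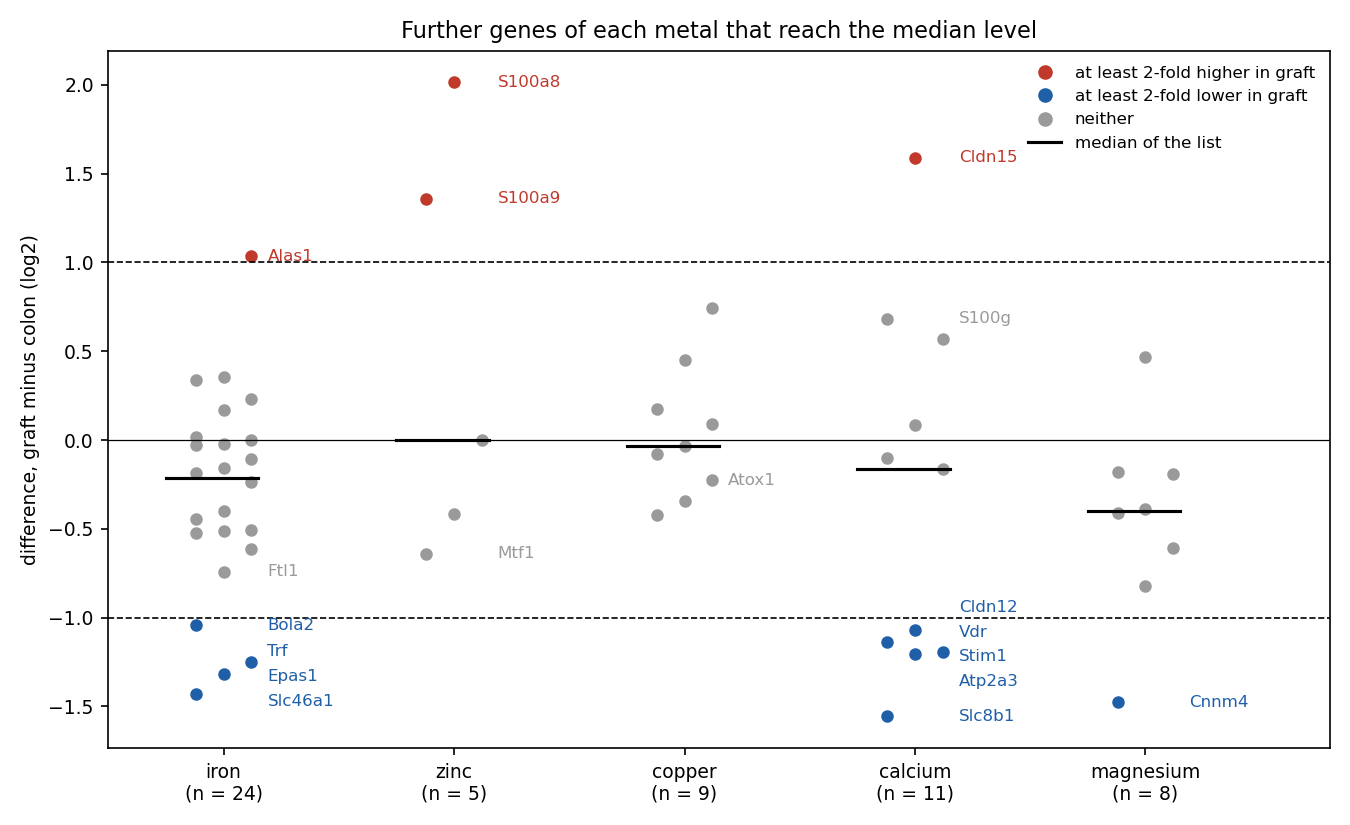
Graft minus colon difference (log2) of the further genes of each metal that reach the median level, 1 point per gene, with a bar at each list's median over these genes and dashed lines at 2-fold. Cldn15, S100a8, S100a9 and Alas1 lie above the upper line, and Cnnm4, Slc8b1 and Slc46a1 are the lowest of the magnesium, calcium and iron lists.

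The short list of further zinc genes held 7 genes, of which 5 reached the median level. Of these 5, 2 had graft values at least 2-fold above the colon (3.55% of all genes) and 0 had values that far below it (5.68% of all genes). They were S100a8 and S100a9, whose proteins together bind zinc and manganese outside cells and are abundant in neutrophils. S100a8 had a value of 6.55 in the graft against 4.54 in the colon, a 4.04-fold higher level, and S100a9 was 2.56-fold higher, at 6.06 in the graft against 4.70 in the colon. Both colon values lay low on their array, at percentiles 6.63 and 17.7, where signal cannot be separated from background, and both genes reached the median level only through the graft. Of the other 4 neutrophil markers measured, Cxcr2 had a value of 5.43 in the graft against 4.47 in the colon and Mpo had 4.91 in the graft against 4.68 in the colon, Elane was tied, and Ly6g had 5.42 in the graft against 10.84 in the colon. The part of neutrophils in the S100a8 and S100a9 values was not tested. Mtf2, a chromatin protein on the same list, had a difference of -0.42.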

How the data were processed

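Total RNA of 1 graft and 1 control colon sample was amplified, labelled with biotin and hybridised to single-colour arrays, per the labels' protocols. The table deposited by the authors holds a log2 expression value for each of 24074 probe sets on each array. The log2 scale was read from the values, and nothing in the labels or the table names the software, background correction or normalization, so the values were used unchanged. Whether arrays had been centred is unknown. Values ran from 4.19 to 13.37 in the graft and from 4.22 to 13.46 in the colon, and the sorted columns differed by at most 0.25. The number of arrays limits the precision, and no detection call was used.

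Probe sets were named through the platform annotation: 18904 had 1 gene symbol, 1330 several and 3840 none, and only the first kind was used. All 46 members matched RefSeq's gene table (GRCm38.p6) by Entrez identifier and symbol. The brightest probe set by mean stood for a gene. Counts used limits of 2-fold and 4-fold. The members, the further gene lists and the genes named (members at least 2-fold apart, preset anchors, and up to 4 genes with the largest differences per further list) were chosen with earlier results of these data known. Alas1, Cldn12, Atp2a2 and Orai1 were named after their values were seen. Counting was tested on simulated data. Python 3.11.15, numpy 2.4.6 and pandas 2.3.3 were used.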

Additional observations from a re-analysis of the deposited data

How the results depend on the processing

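No paired analysis was possible because each group has 1 array. Quantile normalization, centring each array on its median, averaging a gene's probe sets and allowing probe sets with several symbols each left the same 7 members at least 2-fold apart, and moved the differences of 20 named members by at most 0.086. Trpv6 was no longer counted when the mean of both values had to reach the median level, or the higher value the 75th percentile, which left 5 members at least 2-fold lower. The count of 1 higher member and that of 3 members at least 4-fold apart held under each of these settings and with no condition on level. The median over the members ranged from 7.85e-06 to 0.046, and was 0.021 without the 7 tied genes, an alternative chosen after seeing the data. The share of all genes at least 2-fold lower was 3.09% with no condition on level and 8.90% above the 75th percentile, and the share higher was 1.93% and 5.40%. Low signal limits Trpm6, Trpv6 and Trpv5, whose graft values cannot be separated from background.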

Other observations

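Among the members, 3 pairs lie next to each other in the genome or with 1 coding gene between them, by gene order in RefSeq's table. Mt2 and Mt1 on chromosome 8 were both lower in the graft, with differences of -2.60 and -1.10. Slc31a2 and Slc31a1 on chromosome 4 had differences of 0.14 and 0.15. Trpv6 and Trpv5 on chromosome 6 had differences of -1.07 and 0, with Trpv5 near the lower end of both arrays.

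Some genes of mitochondrial iron supply and of iron sensing differed less than 2-fold. The mitochondrial iron carriers Slc25a37 and Slc25a28 had differences of 0.17 and 0.34, the cluster scaffold Iscu of -0.027 and ferrochelatase, Fech, of -0.23. Fbxl5, which targets iron regulatory protein Ireb2 for degradation, had a difference of 0.36, and Ncoa4, the receptor for ferritin breakdown, of 0.015. These genes were chosen after their values were seen, and Alas1 and Bola2, given above, were more than 2-fold apart. Glrx3, the partner of Bola2, had a difference of -0.52.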
